A study of Arabidopsis thaliana with 24 samples.

Results

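The 36 genes described here encode proteins of auxin response, conjugation and transport in Arabidopsis thaliana. They were taken by locus ID from 33245 gene IDs counted in each library, and comprise 25 Aux/IAA genes, 5 GH3 genes, and 6 transporter genes (5 PIN genes and AUX1). Messenger RNA was sequenced from seedlings of 4 genotypes: the double mutant p2k1-3 bdg-8, the single mutants bdg-8 and p2k1-3, and the wild type Col-0. Each genotype received either 150 µM ATP for 30 min or a mock treatment, and each of the 8 groups has 3 libraries, 24 in all. P2K1 is the receptor kinase for ATP outside the cell, and BDG1 is an epidermal hydrolase needed to form the cuticle. The age of the seedlings and the nature of the 2 alleles are not given in the sources used here, and no label says that the replicates are separate cultures, so the p-values reflect how much these libraries vary, which could be technical variation alone.

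Auxin acts by destroying the Aux/IAA proteins, short-lived repressors that sit on auxin response factors (ARFs) and keep their target genes off. The receptors TIR1 and AFB1 to AFB5 bind auxin together with an Aux/IAA protein and send the repressor to the proteasome. Many Aux/IAA and GH3 genes are themselves ARF targets, so their transcripts rise when auxin does: new Aux/IAA protein restores repression, and GH3 enzymes join auxin to amino acids and remove it from the active pool. PIN proteins carry auxin out of cells and AUX1 carries it in, which sets its direction of flow in roots and shoots.

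ATP raised some of these genes and lowered others. GH3.1, IAA2, IAA3 and IAA19 rose with ATP in all 4 genotypes, while GH3.2, PIN7 and AUX1 fell in all 4. The share of all genes called in 1 direction in all 4 genotypes was not counted. Whether such calls are particular to the members was therefore not tested. The rises of GH3.1 and IAA19 were smaller in the double mutant than in bdg-8, and smaller in p2k1-3 than in Col-0. None of these differences was called with replicates 1 and 2 of every group alone. Seedlings carrying bdg-8 had less PIN4, GH3.6, IAA7, IAA16, IAA18 and IAA29 transcript without ATP, and a group of members including PIN3, GH3.6, IAA4 and IAA16 fell with ATP in those genotypes and were not called lower in Col-0. Tested directly, the difference in response between bdg-8 and Col-0 was not called for IAA16. For PIN3 and GH3.6 that call was lost with replicates 1 and 2 alone, and for IAA4 it was kept.

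Libraries held 25856588 to 35239775 counts in genes. Levels are given as CPM, each count taken relative to its library's total after scaling with TMM factors, which correct for differences in composition between libraries. The 35 members with enough counts were tested with edgeR among 20995 genes, and a gene was called at an edgeR adjusted p under 0.05. Changes are log2 fold changes ± SE. IAA20 (AT2G46990), a diverged Aux/IAA gene without the part of the protein that auxin receptors bind, did not pass the filter on low counts and had 2 to 13 counts per library. In every group, replicate 3 lay between replicates 1 and 2. A mixture of these with a weight of 0.4 to 0.5 on replicate 1 matched it best. The median squared deviation was then 1.18 to 1.58 times that of counting noise. For replicates 1 and 2 the best match was replicate 3 alone, at 1.53 to 2.18 times. The number of members called with replicates 1 and 2 alone therefore stands beside each count. The targeted genes still gave transcript: with mock, P2K1 averaged 10.6 ± 0.478 CPM in the double mutant, 12.1 ± 0.927 CPM in p2k1-3 and 21.4 ± 0.821 CPM in Col-0, and BDG1 15.3 ± 0.471 CPM in the double mutant, 14.2 ± 1.77 CPM in bdg-8 and 25.4 ± 0.451 CPM in Col-0 (SD, n = 3 each). With ATP, BDG1 averaged 112 ± 2.28 CPM in the double mutant and 107 ± 9.87 CPM in bdg-8, and 26 ± 1.76 CPM in Col-0. Because whole seedlings were sampled, fewer cells of a type and less RNA per cell cannot be told apart.

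The DNA letters before the start of 4 members that ATP moved are shown because ARFs bind the motif TGTCTC, or with higher affinity TGTCGG, in many auxin-inducible promoters. Each window holds the 300 bases before the RefSeq gene start in the TAIR10.1 assembly, read along the gene's strand, and capitals mark TGTCTC. The build used for counting is not given in the sources used here, and genes were matched by locus ID. IAA19 (AT3G15540, chr3:5263701-5264000, plus strand) encodes a repressor of hypocotyl tropisms, and rose with ATP. Its window holds TGTCTC 3 times, at 184, 145 and 128 bases before the start.
IAA19: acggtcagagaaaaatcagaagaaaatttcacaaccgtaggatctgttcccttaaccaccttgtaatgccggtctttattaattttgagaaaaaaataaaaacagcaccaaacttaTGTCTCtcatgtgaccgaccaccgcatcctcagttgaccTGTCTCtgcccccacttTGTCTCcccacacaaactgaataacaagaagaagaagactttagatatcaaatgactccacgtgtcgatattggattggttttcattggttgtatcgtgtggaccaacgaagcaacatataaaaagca
IAA2 (AT3G23030, chr3:8182096-8182395, minus strand) also rose with ATP, and its window holds neither motif.
IAA2: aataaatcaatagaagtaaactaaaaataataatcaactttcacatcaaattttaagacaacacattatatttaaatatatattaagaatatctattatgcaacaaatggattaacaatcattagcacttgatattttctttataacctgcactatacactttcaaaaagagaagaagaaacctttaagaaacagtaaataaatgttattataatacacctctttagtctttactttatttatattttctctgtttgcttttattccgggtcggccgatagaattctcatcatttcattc
GH3.1 (AT2G14960, chr2:6453798-6454097, minus strand) had the largest rise of any member in Col-0, and its window holds neither motif.
GH3.1: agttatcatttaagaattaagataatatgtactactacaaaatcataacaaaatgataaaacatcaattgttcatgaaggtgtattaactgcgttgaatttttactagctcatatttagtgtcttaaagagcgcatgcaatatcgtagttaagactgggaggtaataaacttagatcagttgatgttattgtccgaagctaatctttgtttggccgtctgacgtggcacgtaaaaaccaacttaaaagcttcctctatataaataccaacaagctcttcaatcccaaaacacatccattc
GH3.2 (AT4G37390, chr4:17579318-17579617, plus strand) fell with ATP and holds TGTCTC once, 144 bases before the start.
GH3.2: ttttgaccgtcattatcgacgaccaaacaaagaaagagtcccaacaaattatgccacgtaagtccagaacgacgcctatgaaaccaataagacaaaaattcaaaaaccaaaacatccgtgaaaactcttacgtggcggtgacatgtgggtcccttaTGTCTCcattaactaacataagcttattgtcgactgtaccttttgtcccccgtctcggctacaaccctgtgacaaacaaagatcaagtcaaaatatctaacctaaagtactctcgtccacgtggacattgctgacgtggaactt

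Searched on both strands, TGTCTC occurred in the windows of 13 of the 36 members (36.1%), against 3558 of 27443 windows of the genome (13%). TGTCGG occurred in 6 members (16.7%), against 1348 of all windows (4.91%). The 2 motifs were counted separately and a window may hold both. In all, 16 members (44.4%) held at least 1 of them, against 17.3% of all windows. By family these were 12 of 25 Aux/IAA genes, 3 of 5 GH3 genes (GH3.2, GH3.3 and GH3.5) and 1 of 6 transporter genes (PIN2). Of the 4 members that rose in all genotypes, IAA3 and IAA19 held TGTCTC while IAA2 and GH3.1 held neither motif; a relation between motif and response over all members was not tested. A match describes letters only, and a window without a match says nothing about more distant sequence.

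Levels per length, in CPM per kilobase of the longest RefSeq transcript, spread the families widely. IAA9 was the most abundant Aux/IAA transcript at a mean of 141 CPM per kb over all libraries, ahead of IAA8 at 63.3, IAA7 at 55.6, IAA16 at 44.6 and IAA2 at 44.5 CPM per kb. The order below IAA9 differed between groups. With ATP, IAA2 stood above IAA8 and IAA7 in the double mutant, at 62.6 against 53.6 and 47.2 CPM per kb. The same held in bdg-8 with ATP, at 73.6 against 56.6 and 54.0 CPM per kb. The lowest tested Aux/IAA genes, IAA29, IAA31, IAA5 and IAA6, had means of 0.438 to 0.822 CPM per kb. Among GH3 genes GH3.6 had the highest mean over all libraries at 10.3 CPM per kb and GH3.1 the lowest at 1.4. That order did not hold in every group: GH3.5 and GH3.6 had 6.45 and 6.29 CPM per kb in the double mutant with ATP, 8.7 and 7.93 in the double mutant with mock, and 6.28 and 5.65 in bdg-8 with ATP, where GH3.1 at 3.08 also exceeded GH3.2 at 2.78. Among transporters, levels ran from PIN7 at 42.1 and PIN3 at 35.3 through AUX1 at 32.7 and PIN4 at 17.2 to PIN2 at 11.2 CPM per kb, and in the 2 groups of the bdg-8 single mutant AUX1 stood slightly above PIN3. GH3.1 and IAA29 had wide ranges over libraries, from 0.368 to 3.59 and from 0.0765 to 1.17 CPM per kb, while IAA9 stayed between 127 and 154. IAA3, IAA5, IAA9, IAA10, IAA11, IAA13 and IAA27 overlap a gene on the opposite strand, and the strand setting of the counting is not given in the sources used here, so their counts may hold reads of that neighbour and are uncertain.

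**Figure D1:**
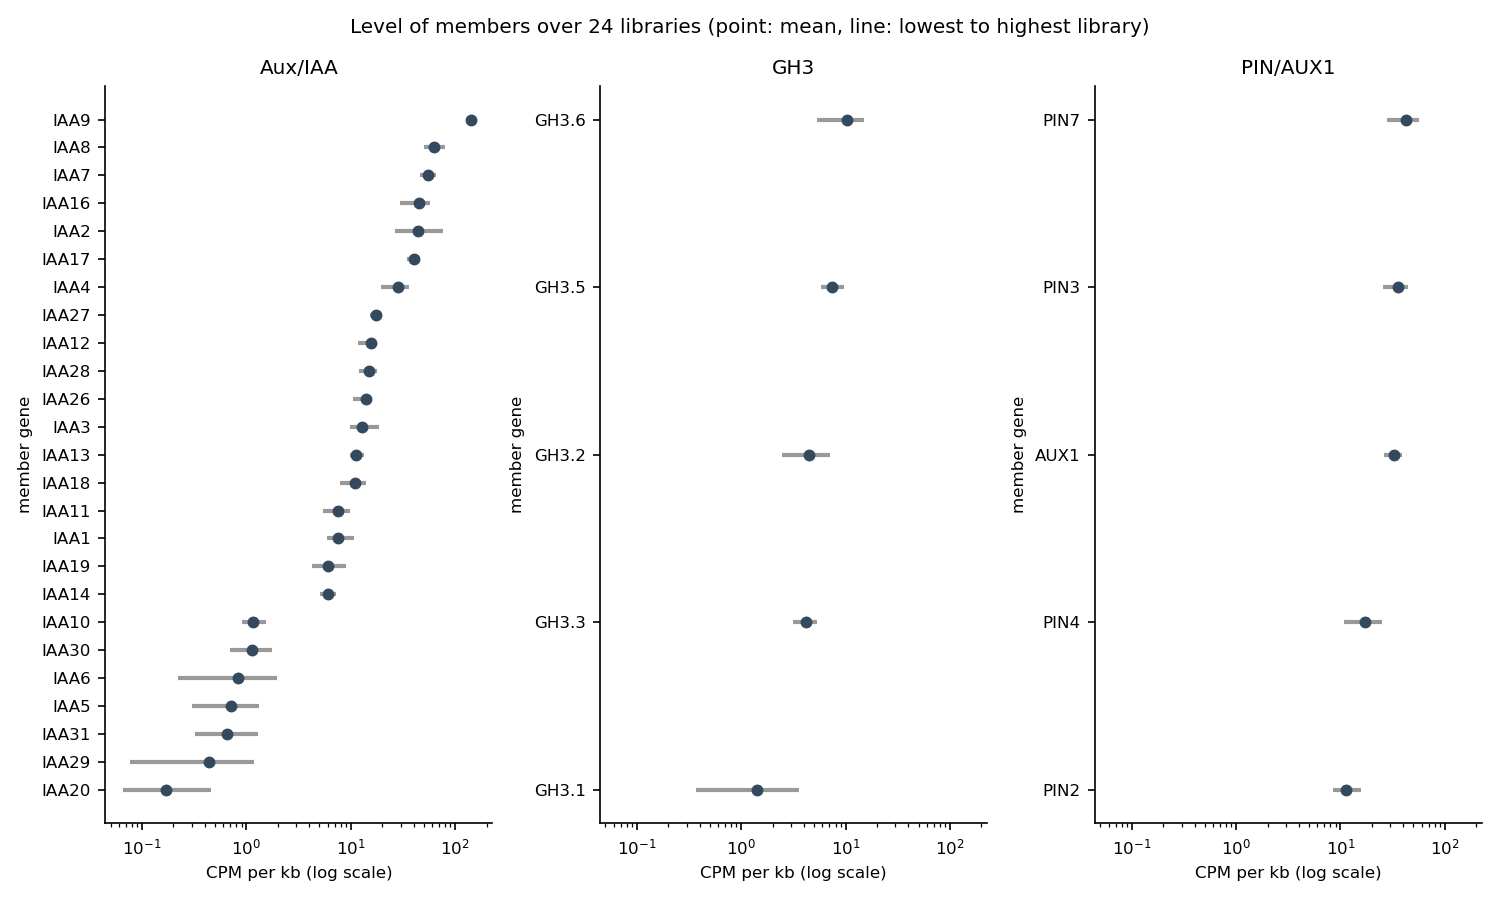
Level of the members in CPM per kilobase on a log axis, by family; points are means over 24 libraries and lines run from the lowest to the highest library. IAA9 leads the Aux/IAA genes at 141 CPM per kb, GH3.6 the GH3 genes at 10.3 by the mean over all libraries, and PIN7 the transporters at 42.1.

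Counts of members called with ATP were set against the share of all genes. In the double mutant 6 of 35 members were higher with ATP and 15 lower (17.1% and 42.9%), against 17.1% and 16.5% of all genes tested. Replicates 1 and 2 alone called 13 members there and 20.3% of all genes. In bdg-8, 9 were higher and 13 lower (25.7% and 37.1%), against 18.7% and 17.7% of all genes, and replicates 1 and 2 alone called 12 members and 23.1% of all genes. In p2k1-3, 6 were higher and 6 lower (17.1% each), against 11.9% and 8.53%; replicates 1 and 2 alone called 7 members and 8.96% of all genes. In Col-0, 6 were higher and 5 lower (17.1% and 14.3%), against 13.2% and 8.67%, and replicates 1 and 2 alone called 7 members and 11.9% of all genes. The median log2 change of the members was -0.17 in the double mutant, -0.09 in bdg-8, 0.02 in p2k1-3 and -0.02 in Col-0, beside -0.022, -0.023, -0.011 and -0.011 over all genes. The share of members that were lower stood above that of all genes in each of the 4 genotypes. The share that were higher was near that of all genes in the double mutant and above it in bdg-8, p2k1-3 and Col-0. With 35 members tested, 1 member makes 2.86%, so the smaller of these gaps rest on few members. No gap between the share of members and that of all genes was tested. The 4 comparisons use separate libraries.

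**Figure D2:**
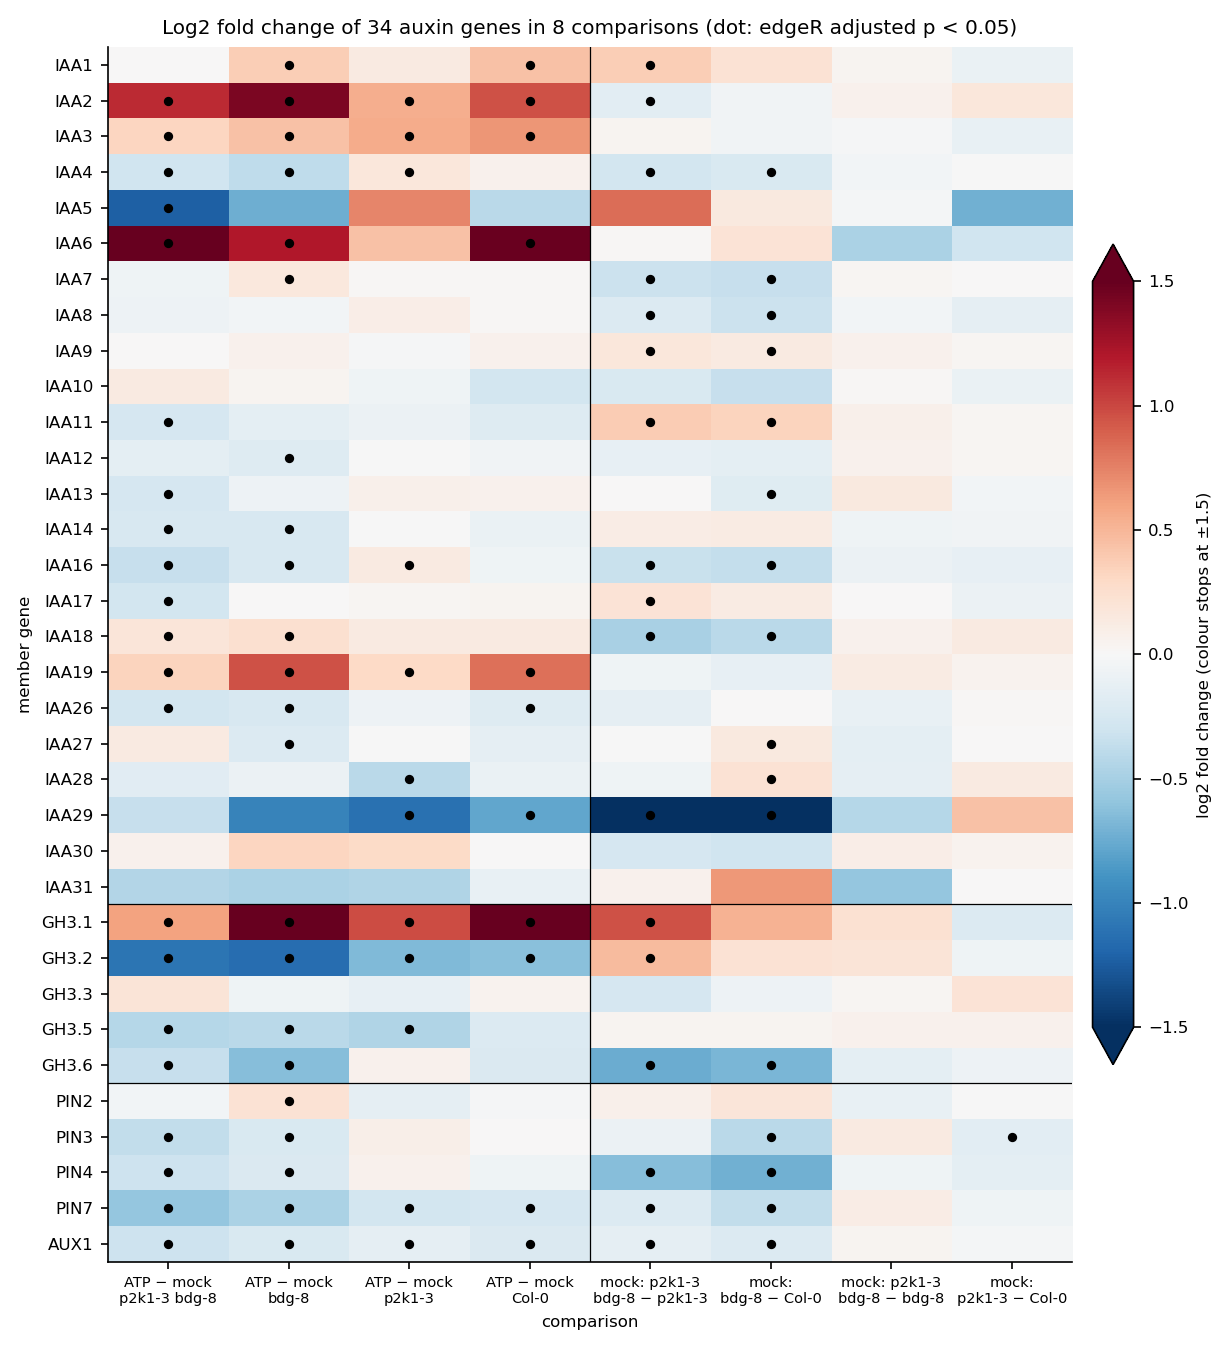
Log2 fold change of the tested members in 8 comparisons of 2 groups, with colours limited to ±1.5, and a dot where the edgeR adjusted p was under 0.05; lines part the families, and the ATP comparisons from those among mock libraries. Rows of GH3.1 and IAA2 are red in all 4 ATP columns and that of GH3.2 blue, and the 2 columns that test bdg-8 without ATP hold 17 and 16 dots.

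Differences between genotypes in the response to ATP were tested in the same model. Between the double mutant and p2k1-3, 2 members responded more positively and 11 more negatively, against 9.85% and 6.38% of all genes; replicates 1 and 2 alone called 5 members and 6.03% of all genes. In this test 4 of 8 green tissue markers also responded more negatively (median difference over the list -0.31, and 0 called with replicates 1 and 2 alone), and their part in the members' differences was not tested. In the other 3 response tests 0 green tissue markers were called, and 0 root hair, root endodermis or mitotic markers were called in any of the 4. Between bdg-8 and Col-0 the difference was positive for 1 member and negative for 3, against 5.76% and 2.15%, and replicates 1 and 2 alone called 1 member and 2.18% of all genes. Left out 1 at a time, single libraries moved this count between 2 members (without replicate 2 of bdg-8 with ATP) and 5. Between the double mutant and bdg-8, 0 members were positive and 2 negative, against 0.152% and 0.486%, and replicates 1 and 2 alone called 0 members and 0.00953% of all genes. Between p2k1-3 and Col-0, 0 were positive and 3 negative, against 0.681% and 3.8%, and replicates 1 and 2 alone called 0 members and 0.714% of all genes. Each pair of these 4 tests that shares a genotype also shares its libraries.

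IAA2 rose with ATP in all 4 genotypes. IAA2 stood at 82.9, 87 and 85 CPM with ATP in the double mutant and at 37.4, 40.3 and 40 CPM with mock. In bdg-8 it had 93.2, 105 and 102 CPM with ATP and 39.6, 36.2 and 37 CPM with mock. Values in p2k1-3 were 65, 62.5 and 65 CPM with ATP and 41, 47.6 and 42.9 CPM with mock, and in Col-0 75.3, 78.4 and 72.2 CPM with ATP and 40.5, 36.1 and 39.8 CPM with mock. Every ATP library lay above every mock library, and the ATP libraries of the 4 genotypes did not overlap, with bdg-8 highest and p2k1-3 lowest. The log2 rise was 1.12 ± 0.06 in the double mutant (edgeR adjusted p = 2.2e-14), 1.41 ± 0.06 in bdg-8 (1.7e-16), 0.55 ± 0.06 in p2k1-3 (3.9e-08) and 0.96 ± 0.06 in Col-0 (9.6e-13). The response differed by 0.56 ± 0.08 between the double mutant and p2k1-3 (edgeR adjusted p = 9.3e-06) and by 0.46 ± 0.08 between bdg-8 and Col-0 (0.00032), larger with bdg-8 in both. For p2k1-3 minus Col-0 the difference was -0.41 ± 0.08 (edgeR adjusted p = 0.0024), a smaller rise. The difference of -0.30 ± 0.08 between the double mutant and bdg-8 was not called (0.09). With replicates 1 and 2 alone only the first of these differences was called.

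IAA19 rose in all genotypes, and less so in those that carry p2k1-3. It had 6.44, 5.9 and 6.02 CPM with ATP in the double mutant and 4.72, 4.93 and 4.98 CPM with mock. The bdg-8 libraries held 9.15, 8.74 and 8.3 CPM with ATP and 4.42, 4.76 and 4.32 CPM with mock. In p2k1-3 there were 6.91, 5.68 and 6.18 CPM with ATP and 4.89, 5.5 and 4.87 CPM with mock, and in Col-0 8.65, 9.15 and 8.22 CPM with ATP and 5.34, 4.73 and 4.61 CPM with mock. ATP libraries of bdg-8 and Col-0 all lay above those of the other 2 genotypes, while the mock groups overlapped, except that all bdg-8 libraries lay below all p2k1-3 libraries. Rises were 0.33 ± 0.09 in the double mutant (edgeR adjusted p = 0.0046), 0.96 ± 0.08 in bdg-8 (1.1e-09), 0.30 ± 0.09 in p2k1-3 (0.012) and 0.83 ± 0.08 in Col-0 (1.9e-08). The response was smaller in the double mutant than in bdg-8, by a log2 difference of -0.63 ± 0.12 (edgeR adjusted p = 0.012), and smaller in p2k1-3 than in Col-0, with -0.52 ± 0.12 (0.0098). Neither difference, nor the rise in the double mutant or in p2k1-3, was called with replicates 1 and 2 alone. The rise in p2k1-3 also lost its call without replicate 3 of p2k1-3 mock (0.27) or replicate 1 of p2k1-3 with ATP (0.23).

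IAA3, a repressor that limits the size of the root meristem, rose by 0.32 ± 0.06 in the double mutant (edgeR adjusted p = 0.00015), 0.44 ± 0.06 in bdg-8 (1.6e-06), 0.56 ± 0.06 in p2k1-3 (5.5e-08) and 0.66 ± 0.06 in Col-0 (1.5e-09). All 4 calls held with replicates 1 and 2 alone. The response in the double mutant was below that in p2k1-3 by a log2 difference of -0.25 ± 0.08 (edgeR adjusted p = 0.044), a call that was lost without any 1 of 9 of the 12 libraries compared, where single omissions gave -0.29 to -0.20. IAA1, a rapidly auxin-induced member, rose by 0.37 ± 0.10 in bdg-8 (edgeR adjusted p = 0.0051) and 0.44 ± 0.10 in Col-0 (0.0021), neither of which was called with replicates 1 and 2 alone. Its values were 0.00 ± 0.10 in the double mutant and 0.14 ± 0.11 in p2k1-3, and the differences in response were not called (edgeR adjusted p = 0.3 for the double mutant against bdg-8 and 0.32 for p2k1-3 against Col-0).

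IAA6 and IAA5 were scarce. IAA6 had 33, 46 and 49 raw counts with ATP in the double mutant and 9, 5 and 16 with mock, 36, 26 and 30 with ATP in bdg-8 and 19, 11 and 12 with mock, 15, 14 and 11 with ATP in p2k1-3 and 8, 7 and 16 with mock, and 41, 39 and 27 with ATP in Col-0 and 18, 9 and 9 with mock. Treatments overlapped only in p2k1-3. IAA6 rose by 2.02 ± 0.30 in the double mutant (edgeR adjusted p = 5.4e-06), 1.20 ± 0.29 in bdg-8 (0.002) and 1.48 ± 0.29 in Col-0 (0.00042), with 0.44 ± 0.37 in p2k1-3 (0.44). The response in the double mutant exceeded that in p2k1-3 by 1.58 ± 0.49 (edgeR adjusted p = 0.027), a call lost with replicates 1 and 2 alone and without any 1 of 5 of the 12 libraries. Between p2k1-3 and Col-0 the difference in the response of IAA6, at -1.04 ± 0.48, was not called (edgeR adjusted p = 0.28). IAA5 had 11, 8 and 9 raw counts with ATP in the double mutant and 23, 27 and 13 with mock, and 14, 15 and 8 with ATP in bdg-8 and 21, 20 and 24 with mock. In p2k1-3 it had 21, 12 and 26 counts with ATP and 13, 11 and 13 with mock, and in Col-0 17, 10 and 19 with ATP and 19, 20 and 19 with mock. Treatments were apart in the 2 genotypes that carry bdg-8, and overlapped in p2k1-3 and Col-0. It fell by -1.22 ± 0.34 in the double mutant (edgeR adjusted p = 0.0069). That call was lost without replicate 2 of the double mutant mock libraries (-0.92). Values elsewhere were -0.73 ± 0.32 in bdg-8, 0.73 ± 0.33 in p2k1-3 and -0.41 ± 0.31 in Col-0, none of them called, and the response in the double mutant lay below that in p2k1-3 by -1.96 ± 0.47 (0.0047), a call that was kept with replicates 1 and 2 alone.

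IAA4 and IAA16 moved in opposite directions with ATP according to genotype. IAA4 had 28.8, 29.6 and 28.4 CPM with ATP in the double mutant and 35.4, 37.4 and 33.8 CPM with mock, and 26.5, 29.5 and 28.6 CPM with ATP in bdg-8 and 36.8, 38.7 and 34.2 CPM with mock. In p2k1-3 it had 48.2, 49.2 and 47.1 CPM with ATP and 43.3, 43.8 and 41.3 CPM with mock, and in Col-0 44, 44.6 and 46 CPM with ATP and 42.8, 41.4 and 44.8 CPM with mock. All 12 libraries that carry bdg-8 lay below all 12 that do not. IAA4 fell by -0.30 ± 0.05 in the double mutant (edgeR adjusted p = 3.7e-05) and -0.38 ± 0.05 in bdg-8 (1.1e-06), and rose by 0.17 ± 0.05 in p2k1-3 (0.011), with 0.06 ± 0.05 in Col-0. The small rise in p2k1-3 was not called with replicates 1 and 2 alone or without replicate 3 of p2k1-3 mock (0.14). The difference between the double mutant and p2k1-3 was -0.47 ± 0.07 (edgeR adjusted p = 1.8e-05) and that between bdg-8 and Col-0 was -0.44 ± 0.07 (0.00011), and both calls held in every alternative.

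For IAA16 the values were 60.5, 65.3 and 62.4 CPM with ATP in the double mutant and 75.8, 81.7 and 81.7 CPM with mock, and 72.8, 72.7 and 69.9 CPM with ATP in bdg-8 and 84.7, 84.8 and 84.5 CPM with mock. In p2k1-3 there were 109, 111 and 111 CPM with ATP and 96.1, 103 and 101 CPM with mock, and in Col-0 97.6, 112 and 104 CPM with ATP and 103, 117 and 106 CPM with mock. Again every library with bdg-8 lay below every library without it, and treatments overlapped in Col-0 alone. IAA16 fell by -0.35 ± 0.05 in the double mutant (edgeR adjusted p = 3.9e-06) and -0.24 ± 0.05 in bdg-8 (0.0004), the second of which was lost with replicates 1 and 2 alone. In p2k1-3 the rise was 0.14 ± 0.05 (edgeR adjusted p = 0.043), which was lost without any 1 of 5 of the 6 libraries (single omissions gave 0.11 to 0.16), and in Col-0 the value was -0.06 ± 0.05. The response in the double mutant differed from that in p2k1-3 by -0.48 ± 0.07 (edgeR adjusted p = 1.2e-05), while the difference of -0.18 ± 0.07 between bdg-8 and Col-0 was not called (0.14).

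IAA29, a gene activated by phytochrome-interacting factors in shade, was low, and fell with ATP in p2k1-3 and Col-0. It had 20, 11 and 22 raw counts with ATP in p2k1-3 and 42, 30 and 50 with mock, and 14, 23 and 15 with ATP in Col-0 and 27, 24 and 34 with mock. In the double mutant 3, 7 and 8 counts were found with ATP and 9, 10 and 3 with mock, and in bdg-8 5, 3 and 6 with ATP and 13, 9 and 8 with mock. The fall in p2k1-3 was -1.12 ± 0.26 (edgeR adjusted p = 0.0025). The fall of -0.78 ± 0.28 in Col-0 (0.047) was lost without any 1 of 5 of the 6 libraries, with replicates 1 and 2 alone, with DESeq2, without the filter on low counts, in a fit of only the 2 groups and in the fit with a replicate block (single omissions gave -1.01 to -0.62). Treatments did not overlap in p2k1-3, Col-0 or bdg-8, where the value of -1 ± 0.45 was not called, and overlapped in the double mutant, at -0.35 ± 0.46. No difference in its response was called (edgeR adjusted p = 0.38 for the double mutant minus p2k1-3, at 0.78 ± 0.54, and 0.9 for bdg-8 minus Col-0, at -0.23 ± 0.52).

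The other Aux/IAA genes moved by less than 0.5 on the log2 scale with ATP where they were called. In the double mutant IAA11, IAA13, IAA14, IAA17 and IAA26 fell by -0.24 to -0.27 and IAA18 rose by 0.18, and of these 6 calls 0 held with replicates 1 and 2 alone. Those of IAA11, IAA14 and IAA18 were also lost without any 1 of 4 or 5 of the 6 libraries. In bdg-8 IAA12, IAA14, IAA26 and IAA27 fell by -0.19 to -0.24, IAA7 rose by 0.16 and IAA18 by 0.24, and the call of IAA18 alone among these 6 was kept with replicates 1 and 2. IAA12 and IAA14 lost theirs without any 1 of 4 or 5 of the 6 libraries, IAA18 without replicate 1 of the bdg-8 ATP libraries (0.18) and IAA27 without replicate 2 of them (-0.16). IAA28, a repressor of lateral root formation, fell by -0.40 ± 0.08 in p2k1-3 (edgeR adjusted p = 0.00047), and IAA26 fell by -0.19 ± 0.06 in Col-0 (0.032), neither of them called with replicates 1 and 2 alone. The call of IAA26 in Col-0 was also lost without replicate 2 of mock or any of the 3 ATP libraries (single omissions gave -0.22 to -0.15). No difference in the response of IAA26 or IAA28 was called (edgeR adjusted p = 0.15 for IAA28 in p2k1-3 minus Col-0, at -0.30 ± 0.11). The responses of IAA13 and IAA17 were lower in the double mutant than in p2k1-3, by log2 differences of -0.33 ± 0.07 (edgeR adjusted p = 0.0021) and -0.30 ± 0.08 (0.009), both lost with replicates 1 and 2 alone. IAA8, IAA9, IAA10, IAA30 and IAA31 were called with ATP in no genotype. IAA9, the most abundant, had mean levels of 293 ± 8.51 CPM with ATP and 293 ± 3.39 CPM with mock in the double mutant, and 266 ± 6.77 CPM with ATP and 255 ± 6.21 CPM with mock in Col-0 (SD, n = 3 each). Its ATP libraries held 300, 284 and 294 CPM in the double mutant, 289, 291 and 295 CPM in bdg-8, 266, 247 and 256 CPM in p2k1-3, and 264, 260 and 273 CPM in Col-0.

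**Figure D3:**
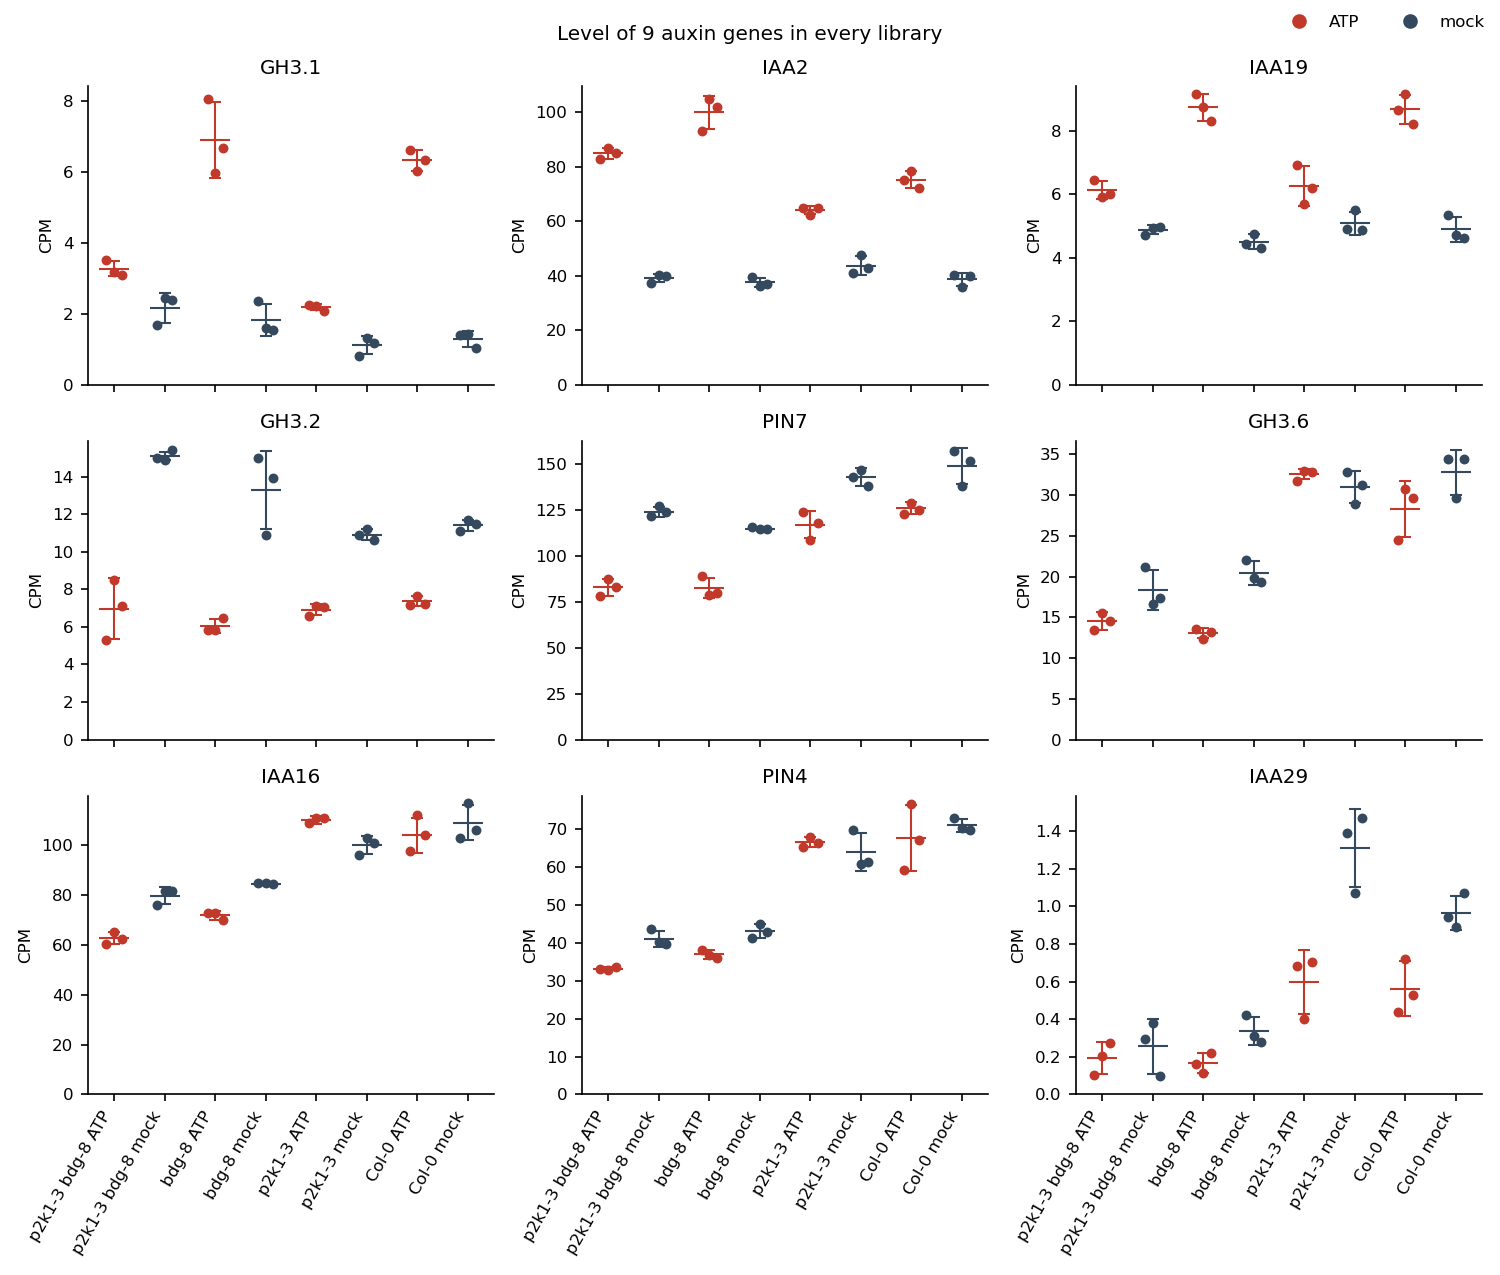
CPM of 9 members in every library, with ATP libraries in red and mock libraries in blue; bars are the mean ± SD of 3 libraries, and axes start at 0. GH3.1 and IAA19 with ATP are lower in the 2 genotypes that carry p2k1-3, and GH3.6, IAA16, PIN4 and IAA29 are lower in the 2 genotypes that carry bdg-8 than in their counterparts under either treatment.

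GH3.1 and GH3.2, enzymes of the same conjugating family, moved in opposite directions with ATP. GH3.1 had 3.52, 3.18 and 3.1 CPM with ATP in the double mutant and 1.67, 2.43 and 2.39 CPM with mock, and 8.05, 5.97 and 6.66 CPM with ATP in bdg-8 and 2.36, 1.6 and 1.53 CPM with mock. In p2k1-3 it had 2.26, 2.22 and 2.08 CPM with ATP and 0.825, 1.32 and 1.17 CPM with mock, and in Col-0 6.62, 6.03 and 6.32 CPM with ATP and 1.4, 1.44 and 1.03 CPM with mock. No ATP library overlapped the mock libraries of its own genotype, and the ATP libraries of bdg-8 and Col-0 all lay above those of the double mutant and p2k1-3. GH3.1 rose by 0.60 ± 0.17 in the double mutant (1.51-fold, edgeR adjusted p = 0.0075), 1.91 ± 0.16 in bdg-8 (3.76-fold, 3.5e-10), 0.98 ± 0.20 in p2k1-3 (1.97-fold, 0.0008) and 2.30 ± 0.17 in Col-0 (4.92-fold, 7.6e-11). The rise in the double mutant was lost without replicate 1 of its mock libraries (0.44). The response was smaller in the double mutant than in bdg-8 by a log2 difference of -1.31 ± 0.24 (edgeR adjusted p = 0.0083) and smaller in p2k1-3 than in Col-0 by -1.32 ± 0.28 (0.0045). These 2 differences kept their calls whichever single library was left out, and neither was called with replicates 1 and 2 alone, where the difference between p2k1-3 and Col-0 was -1.09. Between bdg-8 and Col-0, and between the double mutant and p2k1-3, the response differed by -0.39 ± 0.24 and -0.39 ± 0.27, neither of them called.

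GH3.2 had 5.29, 8.5 and 7.13 CPM with ATP in the double mutant and 15, 14.9 and 15.4 CPM with mock, and 5.84, 5.82 and 6.47 CPM with ATP in bdg-8 and 15, 10.9 and 13.9 CPM with mock. In p2k1-3 there were 6.57, 7.11 and 7.05 CPM with ATP and 10.9, 11.2 and 10.6 CPM with mock, and in Col-0 7.18, 7.67 and 7.24 CPM with ATP and 11.1, 11.7 and 11.5 CPM with mock. All ATP libraries lay below all mock libraries. GH3.2 fell by -1.10 ± 0.11 in the double mutant (edgeR adjusted p = 9.9e-09), -1.14 ± 0.12 in bdg-8 (1.2e-08), -0.66 ± 0.11 in p2k1-3 (0.00011) and -0.63 ± 0.11 in Col-0 (0.00011), and all 4 calls held with replicates 1 and 2 alone. The differences that bdg-8 made to this fall were not called, at -0.45 ± 0.16 between the double mutant and p2k1-3 (edgeR adjusted p = 0.058) and -0.51 ± 0.16 between bdg-8 and Col-0 (0.057).

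GH3.6, the GH3 transcript with the highest mean level over all libraries, differed with bdg-8 under both treatments. Its values were 13.4, 15.6 and 14.6 CPM with ATP in the double mutant and 21.2, 16.6 and 17.4 CPM with mock, and 13.6, 12.4 and 13.2 CPM with ATP in bdg-8 and 22.1, 19.8 and 19.3 CPM with mock. In p2k1-3 it had 31.8, 33 and 32.9 CPM with ATP and 32.8, 28.9 and 31.2 CPM with mock, and in Col-0 24.5, 30.8 and 29.7 CPM with ATP and 34.5, 29.7 and 34.4 CPM with mock. The 12 libraries with bdg-8 all lay below the 12 without it, and treatments overlapped in p2k1-3 and Col-0. ATP lowered GH3.6 by -0.64 ± 0.10 in bdg-8 (edgeR adjusted p = 6.4e-06) and by -0.34 ± 0.09 in the double mutant (0.0072). The second call was lost without replicate 1 of the double mutant, either mock (-0.22) or ATP (-0.26), and with replicates 1 and 2 alone. Values in p2k1-3 and Col-0 were 0.07 ± 0.08 and -0.22 ± 0.08, not called. The response was lower in the double mutant than in p2k1-3 by -0.41 ± 0.13 (edgeR adjusted p = 0.028) and lower in bdg-8 than in Col-0 by -0.43 ± 0.13 (0.038), and each call was lost when any 1 of 6 or 7 of the 12 libraries was left out. GH3.5, which can also act on salicylic acid, fell by -0.43 ± 0.08 in the double mutant, -0.40 ± 0.08 in bdg-8 and -0.45 ± 0.08 in p2k1-3 (edgeR adjusted p of 0.00015, 0.00039 and 0.00019), with -0.20 ± 0.08 in Col-0 (0.09). The call in bdg-8 was lost with replicates 1 and 2 alone. No difference between genotypes in the response of GH3.5 was called (edgeR adjusted p = 0.27 for p2k1-3 minus Col-0, at -0.25 ± 0.12). GH3.3 was called in none of the 13 comparisons, with ATP values of -0.12 to 0.19.

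**Figure D4:**
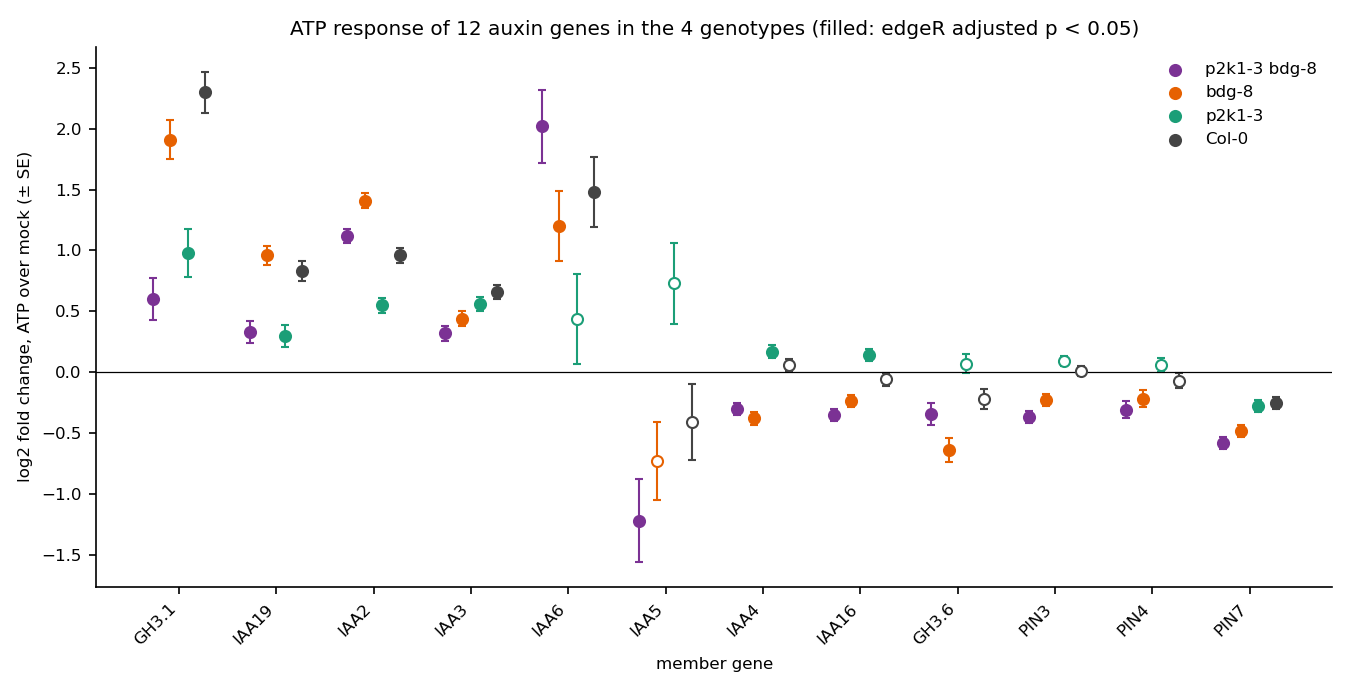
Log2 fold change of ATP over mock ± SE for 12 members in the 4 genotypes, filled where the edgeR adjusted p was under 0.05. GH3.1 and IAA19 separate by P2K1 genotype, and IAA4, IAA16, GH3.6, PIN3 and PIN4 lie below 0 in the 2 genotypes that carry bdg-8.

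Of the transporter genes, PIN7 and AUX1 fell with ATP in all genotypes, PIN3 and PIN4 fell in those that carry bdg-8, and PIN2 rose in bdg-8. PIN7, which with PIN3 and PIN4 redirects auxin during tropisms, had 78, 87.5 and 83.2 CPM with ATP in the double mutant and 122, 127 and 124 CPM with mock, and 89, 78.9 and 79.8 CPM with ATP in bdg-8 and 116, 115 and 115 CPM with mock. In p2k1-3 it had 124, 109 and 118 CPM with ATP and 143, 147 and 138 CPM with mock, and in Col-0 123, 129 and 125 CPM with ATP and 157, 138 and 152 CPM with mock. Within each genotype no ATP library reached a mock library. PIN7 fell by -0.58 ± 0.05 in the double mutant (edgeR adjusted p = 2.9e-09), -0.48 ± 0.05 in bdg-8 (8.7e-08), -0.28 ± 0.05 in p2k1-3 (0.00027) and -0.25 ± 0.05 in Col-0 (0.00097), the last of which was lost with replicates 1 and 2 alone. Its fall was larger in the double mutant than in p2k1-3, with a difference of -0.30 ± 0.08 (edgeR adjusted p = 0.0069, lost with replicates 1 and 2 alone). Between bdg-8 and Col-0 the difference was -0.23 ± 0.08 and not called (0.064).

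PIN3 had 72.5, 75.6 and 74.8 CPM with ATP in the double mutant and 98.3, 93.6 and 96.9 CPM with mock, and 78.3, 70.9 and 73.5 CPM with ATP in bdg-8 and 85.1, 88.2 and 88.8 CPM with mock. In p2k1-3 there were 114, 105 and 110 CPM with ATP and 106, 98.7 and 104 CPM with mock, and in Col-0 122, 111 and 114 CPM with ATP and 110, 116 and 119 CPM with mock. Treatments were apart in the 2 genotypes with bdg-8 and overlapped in the other 2. The fall was -0.37 ± 0.05 in the double mutant (edgeR adjusted p = 2.9e-07) and -0.23 ± 0.05 in bdg-8 (0.0002), beside 0.09 ± 0.04 in p2k1-3 and 0.01 ± 0.04 in Col-0. The response differed by -0.47 ± 0.06 between the double mutant and p2k1-3 (edgeR adjusted p = 6.1e-06, kept with replicates 1 and 2 alone) and by -0.25 ± 0.06 between bdg-8 and Col-0 (0.014). The second difference was lost with replicates 1 and 2 alone and without replicate 2 of bdg-8 with ATP (-0.22).

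PIN4 fell by -0.31 ± 0.07 in the double mutant (edgeR adjusted p = 0.00084) and -0.22 ± 0.07 in bdg-8 (0.015), with 0.06 ± 0.06 in p2k1-3 and -0.07 ± 0.06 in Col-0. The fall in bdg-8 was lost with replicates 1 and 2 alone, without replicate 2 of its mock libraries (-0.19) and without replicate 3 of its ATP libraries (-0.20). Between the double mutant and p2k1-3 the response differed by -0.37 ± 0.09 (edgeR adjusted p = 0.0071), a call that was lost with replicates 1 and 2 alone. Between bdg-8 and Col-0 the difference in the response of PIN4 was not called. AUX1 (AT2G38120), the influx carrier, fell by -0.31 ± 0.04 in the double mutant, -0.23 ± 0.04 in bdg-8, -0.13 ± 0.04 in p2k1-3 and -0.22 ± 0.04 in Col-0 (edgeR adjusted p of 2.4e-06, 0.00014, 0.035 and 0.0003). The fall in p2k1-3 was lost without any 1 of 4 of the 6 libraries (single omissions gave -0.17 to -0.09), as was the difference of -0.19 ± 0.06 between the double mutant and p2k1-3 (0.04) without any 1 of 9 of 12. Neither was called with replicates 1 and 2 alone. PIN2, the efflux carrier of root gravitropism, rose in bdg-8 by 0.22 ± 0.07 (edgeR adjusted p = 0.014). That call was lost with replicates 1 and 2 alone and without replicate 2 of its mock (0.20) or ATP libraries (0.14). No difference between genotypes in the response of PIN2 was called.

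Without ATP, the bdg-8 mutation was measured in both backgrounds. In the double mutant against p2k1-3, 6 of 35 members were higher and 11 lower (17.1% and 31.4%), against 15.1% and 16.1% of all genes. Replicates 1 and 2 alone called 7 members there, all of them lower, and 10.3% of all genes. In bdg-8 against Col-0, 4 were higher and 12 lower (11.4% and 34.3%), against 18% and 18.5% of all genes, and replicates 1 and 2 alone called 9, all lower, and 15.1% of all genes. In both comparisons 10 members were lower (IAA4, IAA7, IAA8, IAA16, IAA18, IAA29, GH3.6, PIN4, PIN7 and AUX1), IAA9 and IAA11 were higher in both, and 0 were called in opposite directions. The share of all genes called in both comparisons was not counted, so whether this overlap is particular to the members was not tested. The 2 comparisons share no library. The median change of the members was -0.06 and -0.05, beside -0.003 and 0.002 over all genes.

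Markers of tissues moved in the same comparisons. All 8 green tissue genes were lower in bdg-8 than in Col-0, with summed levels of 21500 to 29900 CPM in bdg-8 and 35200 to 38000 CPM in Col-0, and 7 of 8 were lower in the double mutant than in p2k1-3, with 23700 to 26700 CPM in the double mutant and 30600 to 35100 CPM in p2k1-3. Of the 6 mitotic genes, 5 were lower in bdg-8 and 4 in the double mutant, with sums of 126 to 137 CPM in bdg-8 and 152 to 171 CPM in Col-0, and 124 to 128 CPM in the double mutant and 134 to 169 CPM in p2k1-3. Root hair markers were higher for 2 of 5 genes in bdg-8 (sums of 107 to 135 CPM in bdg-8 and 85.8 to 111 CPM in Col-0) and 3 of 5 in the double mutant (104 to 119 CPM in the double mutant and 89.1 to 95.9 CPM in p2k1-3). Of 7 root endodermis markers, 1 was lower in bdg-8 (28.5 to 29.1 CPM in bdg-8 and 26.7 to 33.9 CPM in Col-0) and 3 in the double mutant (23.9 to 25.9 CPM in the double mutant and 26.9 to 29.3 CPM in p2k1-3). With replicates 1 and 2 alone the calls were 5 green tissue genes and 1 mitotic gene in bdg-8 and 0 in the double mutant. No marker of these 4 lists had a level of 0 in any group. Their part in the lower levels of auxin genes was not tested.

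PIN4 was the transporter with the largest difference. It had 43.6, 40.2 and 39.7 CPM in the double mutant and 69.7, 60.8 and 61.4 CPM in p2k1-3, and 41.3, 44.9 and 42.9 CPM in bdg-8 and 73, 70.3 and 69.8 CPM in Col-0, all with mock. Libraries with and without bdg-8 were well apart. The log2 difference was -0.64 ± 0.07 for the double mutant minus p2k1-3 (edgeR adjusted p = 1.7e-07) and -0.72 ± 0.07 in bdg-8 against Col-0 (2.6e-08). GH3.6, whose values are given above, was lower by -0.75 ± 0.09 (edgeR adjusted p = 8.6e-07) and -0.69 ± 0.09 (2.1e-06) in the same 2 comparisons. IAA29 was lower by -2.38 ± 0.31 (edgeR adjusted p = 4e-06) and -1.5 ± 0.31 (0.00055), the largest differences of any member, on the small counts given for it. IAA18, IAA16 and IAA7 were lower by -0.49 ± 0.07, -0.33 ± 0.05 and -0.32 ± 0.04 in the double mutant against p2k1-3 and by -0.41 ± 0.07, -0.36 ± 0.05 and -0.34 ± 0.04 in bdg-8 against Col-0, with edgeR adjusted p of 4.2e-05 or less. Each of these 12 calls held in every alternative.

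Smaller differences were less stable. IAA4 was lower by -0.27 ± 0.05 in the double mutant against p2k1-3 and -0.23 ± 0.05 in bdg-8 against Col-0 (edgeR adjusted p of 0.00018 and 0.00055), IAA8 by -0.21 ± 0.07 and -0.32 ± 0.07 (0.02 and 0.00071), PIN7 by -0.20 ± 0.05 and -0.37 ± 0.05 (0.0057 and 1e-05), and AUX1 by -0.14 ± 0.04 and -0.21 ± 0.04 (0.015 and 0.00047). With replicates 1 and 2 alone, IAA4 kept its call in the double mutant only, PIN7 and AUX1 kept theirs in bdg-8 only, and IAA8 kept neither. In the double mutant IAA8 also lost its call without replicate 1 of p2k1-3 mock (-0.13) or replicate 1 or 3 of the double mutant mock libraries (-0.20 each), and AUX1 without replicate 1 of p2k1-3 mock (-0.10) or of the double mutant mock libraries (-0.12). IAA9 was higher by 0.17 ± 0.03 (edgeR adjusted p = 0.00055) and 0.14 ± 0.03 (0.0032), with 292, 297 and 290 CPM in the double mutant and 258, 260 and 263 CPM in p2k1-3, and 278, 281 and 280 CPM in bdg-8 and 262, 251 and 252 CPM in Col-0, which did not overlap. IAA11 was higher by 0.38 ± 0.09 (edgeR adjusted p = 0.0034) and 0.33 ± 0.10 (0.0086). None of these 4 rises was called with replicates 1 and 2 alone, and that of IAA11 in bdg-8 was lost without replicate 1 of bdg-8 mock (0.25).

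GH3.1 and GH3.2 were higher in the double mutant than in p2k1-3 without ATP, by 0.96 ± 0.20 (edgeR adjusted p = 0.00088) and 0.47 ± 0.10 (0.0013), and were not called in bdg-8 against Col-0, at 0.52 ± 0.21 (0.051) and 0.22 ± 0.11 (0.11). IAA1 and IAA17 were likewise higher in the double mutant than in p2k1-3, by 0.37 ± 0.10 (edgeR adjusted p = 0.0086) and 0.21 ± 0.06 (0.0063), and IAA2 was lower by -0.16 ± 0.06 (0.038). None of these 5 calls was made with replicates 1 and 2 alone, and those of IAA1 and IAA17 were lost without replicate 1 of the double mutant mock libraries (0.29 and 0.16). IAA2 lost its call without any 1 of 4 of the 6 libraries. In bdg-8 against Col-0, IAA13 was lower by -0.18 ± 0.05 (edgeR adjusted p = 0.0079) and IAA27 and IAA28 were higher by 0.15 ± 0.06 (0.048) and 0.22 ± 0.08 (0.032). These 3 calls were lost with replicates 1 and 2 alone, that of IAA13 without replicate 2 of bdg-8 mock (-0.13) and those of IAA27 and IAA28 without any 1 of 4 of the 6 libraries.

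PIN3 set the 2 backgrounds apart. It was lower in bdg-8 than in Col-0 by -0.40 ± 0.04 (edgeR adjusted p = 4.8e-07), and the value in the double mutant against p2k1-3 was -0.09 ± 0.04 (0.12). For PIN3 the effect of bdg-8 in p2k1-3 minus that in Col-0 was 0.30 ± 0.06 (edgeR adjusted p = 0.0099), the only member called in that test, where 1 was positive and 0 negative against 0.572% and 1.41% of all genes. Replicates 1 and 2 alone called 0 members and 0.00953% of all genes in it. The p2k1-3 mutation was also compared without ATP. In p2k1-3 against Col-0, 0 of 35 members were higher and 1 lower, against 3.41% and 1.89% of all genes, a share near that of all genes, and replicates 1 and 2 alone called 0 members and 0.41% of all genes. That member was PIN3, at -0.16 ± 0.04 (edgeR adjusted p = 0.033), a call lost without replicate 2 or 3 of Col-0 mock or of p2k1-3 mock (single omissions gave -0.19 to -0.14). The count ran from 0 to 2, and was 2 without replicate 1 of p2k1-3 mock. In the double mutant against bdg-8, edgeR called 0 members higher and 0 lower, against 0.381% and 0.286% of all genes. DESeq2 called 0 as well, and replicates 1 and 2 alone gave 0 members and 0.0286% of all genes. Before adjustment 3 members (IAA13, IAA27 and PIN3) had an edgeR p under 0.05, with edgeR adjusted p of 0.22, 0.3 and 0.18. The share of all genes at that unadjusted level was not counted, so these 3 are not read as a difference.

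Genes on either side of these families in the auxin pathway were examined with ATP, where the shares of all genes called lower were those given above (16.5% in the double mutant, 17.7% in bdg-8, 8.53% in p2k1-3 and 8.67% in Col-0). The auxin receptor genes fell: 6 of 6 in the double mutant, 5 in bdg-8, 2 in p2k1-3 and 4 in Col-0, and 6, 5, 0 and 3 with replicates 1 and 2 alone. AFB1, AFB3 and AFB4 overlap genes on the opposite strand, and their counts are uncertain. AFB2, one of the receptors, fell by -0.45 ± 0.04, -0.52 ± 0.04, -0.15 ± 0.04 and -0.26 ± 0.04 in those genotypes, and summed receptor levels were 176 to 180 CPM with ATP and 225 to 227 CPM with mock in the double mutant, and 193 to 209 CPM with ATP and 226 to 230 CPM with mock in Col-0. Its response was lower in the double mutant than in p2k1-3 by -0.30 ± 0.06 (edgeR adjusted p = 0.00099) and lower in bdg-8 than in Col-0 by -0.26 ± 0.06 (0.0099). Of 15 ARF genes, 4 rose and 8 fell in the double mutant, 3 and 7 in bdg-8, 3 and 0 in p2k1-3, and 2 and 4 in Col-0. With replicates 1 and 2 alone these were 0 and 2, 3 and 6, 1 and 0, and 1 and 0. ARF18 rose in each genotype, by 0.27 ± 0.08, 0.36 ± 0.08, 0.39 ± 0.08 and 0.40 ± 0.08, and ARF9 fell by -0.27 ± 0.05 in the double mutant, -0.34 ± 0.05 in bdg-8 and -0.15 ± 0.05 in Col-0.

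Auxin synthesis runs through the aminotransferase TAA1 and then the YUC flavin monooxygenases. YUC5 rose by 3.49 ± 0.13 in the double mutant, 3.64 ± 0.14 in bdg-8, 2.31 ± 0.14 in p2k1-3 and 2.73 ± 0.14 in Col-0 (edgeR adjusted p of 3.6e-12 or less), and TAA1 fell by -0.86 ± 0.07, -0.87 ± 0.07, -0.54 ± 0.07 and -0.47 ± 0.07 (1.4e-05 or less). The rise of YUC5 exceeded that in p2k1-3 by 1.18 ± 0.21 in the double mutant (edgeR adjusted p = 0.00024) and that in Col-0 by 0.91 ± 0.22 in bdg-8 (0.0097). Of the 11 synthesis and oxidation genes tested, 1 rose and 7 fell in the double mutant, 1 and 6 in bdg-8, 2 and 3 in p2k1-3, and 1 and 3 in Col-0, and with replicates 1 and 2 alone 1 and 4, 1 and 5, 1 and 1, and 1 and 2. GH3.17, which conjugates auxin to glutamate, fell by -1.33 ± 0.08, -1.59 ± 0.08, -0.67 ± 0.08 and -1.09 ± 0.08. Of the 7 tested genes of its list (further GH3 and Aux/IAA genes), 1 rose and 3 fell in the double mutant, 0 and 3 in bdg-8, 1 and 2 in p2k1-3, and 0 and 2 in Col-0, and with replicates 1 and 2 alone 1 and 3, 0 and 3, 1 and 1, and 0 and 1.

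SAUR genes, rapid auxin-induced genes of cell expansion, fell and did not rise in any genotype: 8 of 9 tested in the double mutant, 7 in bdg-8, 4 in p2k1-3 and 3 in Col-0, and 7, 5, 3 and 2 with replicates 1 and 2 alone. The summed level of the 10 listed was 16.1 to 20 CPM with ATP and 53.9 to 55.6 CPM with mock in the double mutant, 16.8 to 21 CPM with ATP and 47.7 to 57.5 CPM with mock in bdg-8, 38.1 to 42.6 CPM with ATP and 53.9 to 63.7 CPM with mock in p2k1-3, and 36.4 to 47.3 CPM with ATP and 67.4 to 68.6 CPM with mock in Col-0. SAUR16 fell by -1.98 ± 0.11, -1.97 ± 0.11, -0.82 ± 0.10 and -1.03 ± 0.10, and its response was lower in the double mutant than in p2k1-3 by -1.16 ± 0.15 (edgeR adjusted p = 2.9e-06) and lower in bdg-8 than in Col-0 by -0.94 ± 0.15 (0.00013). SAUR19 to SAUR24 are near copies of each other, and their separate counts are uncertain. Of 10 further transport genes, 2 rose and 3 fell in the double mutant, 3 and 4 in bdg-8, 4 and 2 in p2k1-3, and 2 and 2 in Col-0, and with replicates 1 and 2 alone 1 and 3, 3 and 2, 2 and 1, and 2 and 2. ABCB19, an efflux transporter, rose by 0.22 ± 0.05, 0.40 ± 0.05, 0.19 ± 0.05 and 0.37 ± 0.05, ABCB1 fell by -0.22 ± 0.03, -0.22 ± 0.03, -0.23 ± 0.03 and -0.20 ± 0.03, and PID, a kinase that steers PIN proteins, rose by 0.73 ± 0.11, 0.89 ± 0.11, 0.37 ± 0.12 and 0.81 ± 0.12, in the same order of genotypes. Green tissue markers were called lower with ATP for 3 of 8 genes in the double mutant, 1 in bdg-8 and 0 in p2k1-3 and Col-0, and root hair markers for 4, 0, 3 and 1 of 5 genes in that order. Root endodermis markers were lower for 2, 1, 2 and 0 of 7 genes and higher for 1 in bdg-8, and 0 mitotic markers were called. With replicates 1 and 2 alone, green tissue markers were lower for 1, 0, 0 and 0 genes. Root hair markers were then lower for 1, 0, 1 and 0, and root endodermis markers for 0, 1, 1 and 0. Their part in the falls was not tested.

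**Figure D5:**
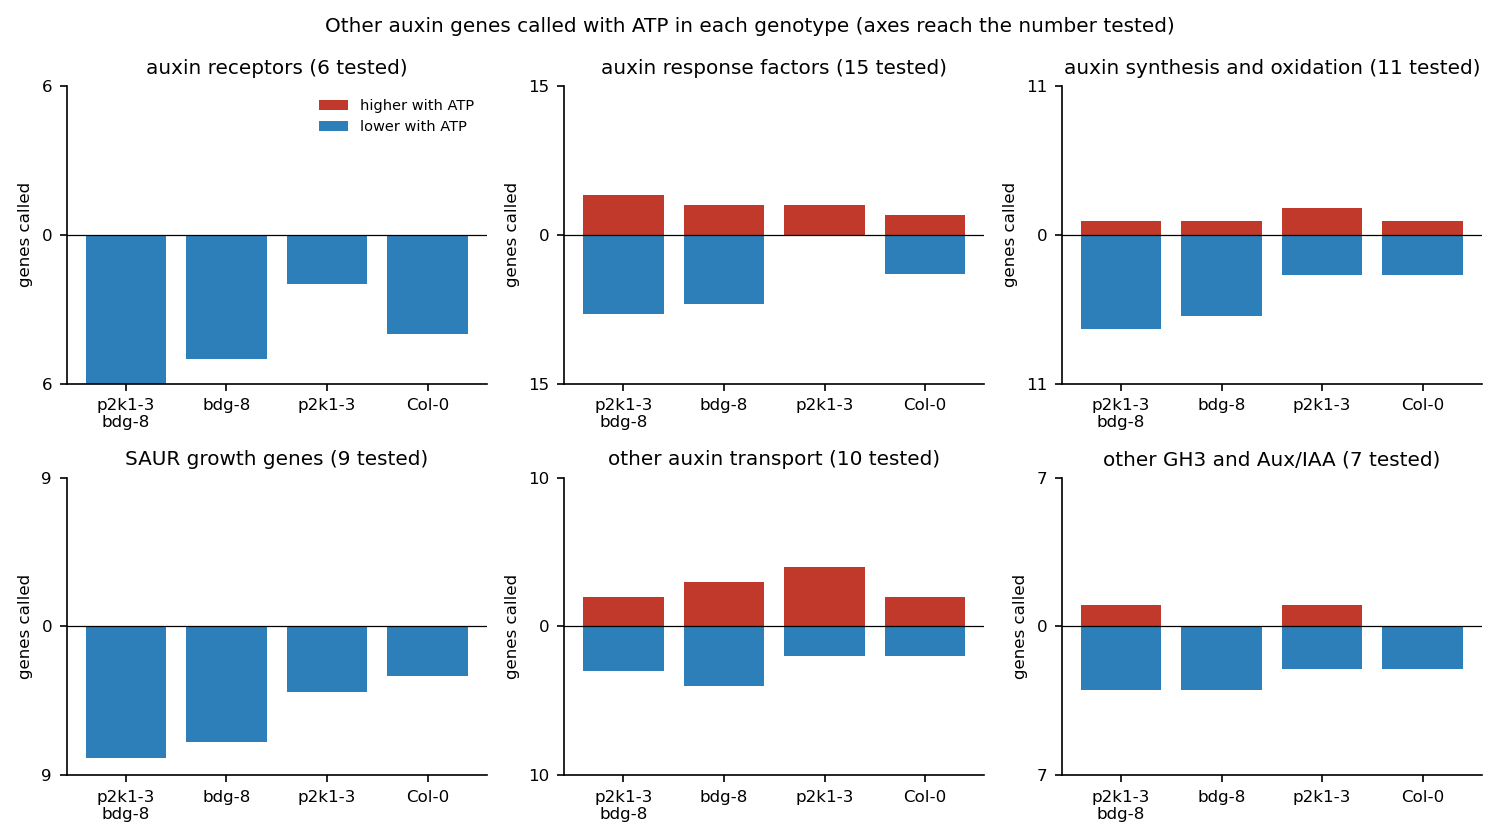
Number of genes in 6 further auxin lists called higher (upward, red) or lower (downward, blue) with ATP in each genotype; each axis reaches the number of genes tested. Receptors fell in 6 of 6 cases in the double mutant and 4 of 6 in Col-0, and SAUR genes in 8 of 9 and 3 of 9.

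Without ATP the same lists were compared with and without bdg-8. AFB2 was higher by 0.18 ± 0.04 in the double mutant than in p2k1-3 and by 0.14 ± 0.04 in bdg-8 than in Col-0, and no other receptor gene was called; replicates 1 and 2 alone called 0 receptor genes in either comparison. ARF genes were higher for 0 and lower for 5 of 15 in the double mutant, and higher for 1 and lower for 6 in bdg-8, beside 16.1% and 18.5% of all genes lower, and replicates 1 and 2 alone called 2 lower in each. ARF1 was lower by -0.25 ± 0.04 and -0.31 ± 0.04. YUC9 was higher by 0.84 ± 0.21 and 1.14 ± 0.22 (edgeR adjusted p of 0.0038 and 0.00029), and the influx carrier gene LAX2 was lower by -0.26 ± 0.06 and -0.30 ± 0.06 (0.00093 and 0.00017). Of 11 synthesis and oxidation genes, 2 were higher and 1 lower in the double mutant, and 3 and 2 in bdg-8. Of 10 further transport genes these were 2 and 4, and 3 and 4. Of 7 further GH3 and Aux/IAA genes they were 1 and 1, and 2 and 2. All genes higher were 15.1% and 18%. With replicates 1 and 2 alone the 3 lists gave 1 and 0, 1 and 0, and 1 and 1 in the double mutant. In bdg-8 they gave 1 and 1, 0 and 3, and 1 and 1. SAUR genes were called lower for 0 of 9 in the double mutant and 3 in bdg-8, where replicates 1 and 2 alone called 0. In p2k1-3 against Col-0, 1 synthesis gene was higher and 1 transport gene lower among the 58 genes tested in these 6 lists, and replicates 1 and 2 alone called 0.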

How the data were processed

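Counts of reads per gene were deposited by the authors, 1 table per library, with 5 HTSeq summary rows, which held 7.603 to 12.17% of reads and were left out. The submitters' processing notes name cutadapt 1.13, STAR 2.7.4a, HTSeq 0.13.5 and MultiQC 1.9; settings, build and strand are not given in the sources used here. Ambiguous reads took 4.026 to 4.405% and reads with several alignments 3.13 to 7.591%.

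Counts were filtered and scaled by TMM (0.9544 to 1.07), and 1 edgeR 4.0.16 quasi-likelihood model (R 4.3.3) with a mean per group was fitted to 20995 genes in 24 libraries (16 residual degrees of freedom). Benjamini-Hochberg adjustment covered every tested gene, with a threshold of 0.05. Fits were also run on simulated data with independent libraries, which cannot address the position of replicate 3 between replicates 1 and 2. The members, lists and alternatives were chosen with earlier results of these data known. Values in every library were given for members called with a log2 change of at least 1, for those with the 3 smallest adjusted p in each difference of responses, and for the most abundant member of each family. Those of PIN4, chosen after values were seen, were given in the text for the mock libraries alone. Alternatives were RLE size factors, DESeq2 1.42.0, no filter, a replicate block, fits of only the groups compared, replicates 1 and 2 alone and each library left out. Same-numbered libraries deviated together weakly (median correlation 0.032, against -0.013 between different numbers), and the main model did not treat them as pairs. Gene names and promoter windows came from RefSeq, TAIR10.1, where all 36 members were found. A single member is counted among them but not reported here by name, in the text or in figures.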

Additional observations from a re-analysis of the deposited data

Results flagged for a closer look

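A test of the difference itself called 23 differences between genotypes, all given as log2 values from edgeR. Between p2k1-3 and Col-0, the ATP response differed for IAA2 (-0.41), IAA19 (-0.52) and GH3.1 (-1.32). Between bdg-8 and Col-0 it differed for IAA2 (0.46), IAA4 (-0.44), GH3.6 (-0.43) and PIN3 (-0.25). Between the double mutant and bdg-8 it differed for IAA19 (-0.63) and GH3.1 (-1.31).

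Between the double mutant and p2k1-3 the ATP response was higher for IAA2 (0.56) and IAA6 (1.58). It was lower there for IAA3 (-0.25), IAA4 (-0.47), IAA5 (-1.96), IAA13 (-0.33), IAA16 (-0.48) and IAA17 (-0.30). GH3.6 (-0.41), PIN3 (-0.47), PIN4 (-0.37), PIN7 (-0.30) and AUX1 (-0.19) were lower as well. Without ATP, the effect of bdg-8 on PIN3 in p2k1-3 minus its effect in Col-0 was 0.30.

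With replicates 1 and 2 alone, 6 of the 23 were called: IAA4 in bdg-8 against Col-0, and IAA2, IAA4, IAA5, IAA16 and PIN3 in the double mutant against p2k1-3.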

How the results depend on the processing

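With replicates 1 and 2 alone, a fit with fewer libraries, the counts of members called with ATP were 13 in the double mutant, 12 in bdg-8, 7 in p2k1-3 and 7 in Col-0. Without ATP they were 7 for the double mutant against p2k1-3, 9 for bdg-8 against Col-0 and 0 for p2k1-3 against Col-0. Differences of ATP response gave 5 (double mutant against p2k1-3), 1 (bdg-8 against Col-0), 0 (double mutant against bdg-8) and 0 (p2k1-3 against Col-0), and the genotype difference without ATP 0. Leaving out single libraries gave 17 to 21, 19 to 20, 8 to 12 and 9 to 12 members with ATP in the same order of genotypes, 12 to 17, 15 to 18 and 0 to 2 without ATP, and 9 to 13, 2 to 5, 2 to 3 and 3 to 4 for the differences of response. Same-numbered libraries shared a weak deviation: 5 of 24 same-number correlations were over 0.1, against 0 of 48 between different numbers. Their medians were 0.032 and -0.013, and 20 of 24 libraries correlated best with their own number. With the replicate block 21, 22, 12 and 10 members were called with ATP. RLE scaling, no filter, DESeq2 and fits of only the groups compared kept each count within 1.5 times. Of 123 called values followed through 1614 alternative values, 1415 kept their call, 199 lost it and 0 reversed. Depth limited IAA5, IAA6, IAA20, IAA29 and IAA31, with few counts per library.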
